A study of Mus musculus with 2 samples.

Results

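The genes described here are the 10 that set the passage through G1, the growth phase before DNA replication, and the exit from the cell cycle: the D cyclins Ccnd1, Ccnd2 and Ccnd3, the E cyclins Ccne1 and Ccne2, the kinases Cdk4 and Cdk6, the kinase inhibitors Cdkn1a (p21) and Cdkn1b (p27), and the retinoblastoma gene Rb1. They were taken by name out of 32285 annotated genes and followed through radial glia, intermediate progenitors and ganglionic eminence progenitors in and out of the cell cycle, and through the neurons that these progenitors give rise to. The data are 2 single-cell RNA-seq libraries (10x Genomics, 3' end counting) of cells dissociated from the dorsal telencephalon of WT mouse embryos at embryonic day 16.5, called WT replicate 1 and WT replicate 6 as in their labels, which give the tissue as brain hemispheres and no treatment. The series was set up around a conditional Dot1l deletion with Emx1-Cre, a driver active in dorsal telencephalic progenitors. Conditional knockouts were not analysed here, and the labels do not say whether the WT embryos carried the Cre or a floxed allele, nor whether a library held 1 embryo or a pool. With 2 libraries, every p-value below measures only the spread between these 2 samples.

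As background, D cyclins are made in response to growth signals and bind Cdk4 or Cdk6, and the active kinase phosphorylates Rb1, which otherwise holds E2f transcription factors inactive. Released E2f factors switch on the E cyclins, which work with Cdk2 at the start of DNA replication. Proteins of the Cip/Kip family, Cdkn1a and Cdkn1b among them, bind and restrain these kinases. In the embryonic cortex radial glia line the ventricle, give rise to Eomes-positive intermediate progenitors, and both divide before neurons leave the cycle, while the ganglionic eminences produce GABAergic neurons. Much of the control of these proteins lies in their modification and degradation, which RNA counts do not show.

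Cells were assigned to classes by raw counts of marker transcripts, none of them a member. A progenitor was called cycling with at least 2 unique molecular identifiers (UMIs, 1 per captured transcript) of Mki67 and Top2a together, both proliferation genes, and non-cycling with none. The 2 libraries held 7219 and 7352 cells after removal of doublets and low-quality barcodes, with medians of 6517 and 6334 UMIs per cell. Of all deposited barcodes 59 occurred in both libraries, and of those kept 20 did. In replicates 1 and 6 the gates found 99 and 106 cycling and 95 and 104 non-cycling radial glia, 46 and 27 cycling and 148 and 169 non-cycling intermediate progenitors, 122 and 130 cycling and 55 and 48 non-cycling eminence progenitors, 689 and 687 newborn and 1282 and 1642 later excitatory neurons, and 896 and 916 Dlx+ GABAergic neurons. The class labels held in genes read separately: the mitotic cyclin gene Ccnb1 stood at a mean of 242 counts-per-million (CPM) in cycling and 3.17 CPM in non-cycling radial glia, and all 8 genes of a mitotic list were higher in the cycling state of each progenitor type. Eminence progenitors were present although the dissection was of the dorsal telencephalon. In the cycling state they held Dlx2, a gene of their own gate, at 279 and 335 CPM. Emx1, which the eminence gate did not use, stood at 0.635 and 3.32 CPM. "Non-cycling" is a matter of these 2 marker genes: by phase scores, 29.5% and 26.9% of the non-cycling radial glia, 8.11% and 6.51% of the non-cycling intermediate progenitors and 32.7% and 43.8% of the non-cycling eminence progenitors were placed in S phase.

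Levels in counts-per-million (CPM) are a gene's UMIs summed over a class within a library, relative to all UMIs of that sum, and differences are log2 values with their standard error from edgeR's quasi-likelihood test on the summed counts. A gene is said to have been called, or to have risen or fallen, where the Benjamini-Hochberg adjusted p over all genes tested was under 0.05. Since 3' counts of different genes depend on their transcripts, levels were compared between classes and not between genes. The span of the members over the 9 progenitor and neuron classes was very unequal: the highest class mean over the lowest was 57.7-fold for Cdk6 and 55.4-fold for Ccnd2, but 2.92-fold for Cdk4, 1.96-fold for Cdkn1b and 1.82-fold for Rb1. Ccne1 and Ccnd1 spanned 37.0-fold and 26.2-fold, while Ccne2 and Ccnd3 spanned 10.6-fold and 6.89-fold. Cdkn1a gave at most 6 UMIs per library in any of the 6 progenitor classes, so that its order among them cannot be read.

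**Figure D1:**
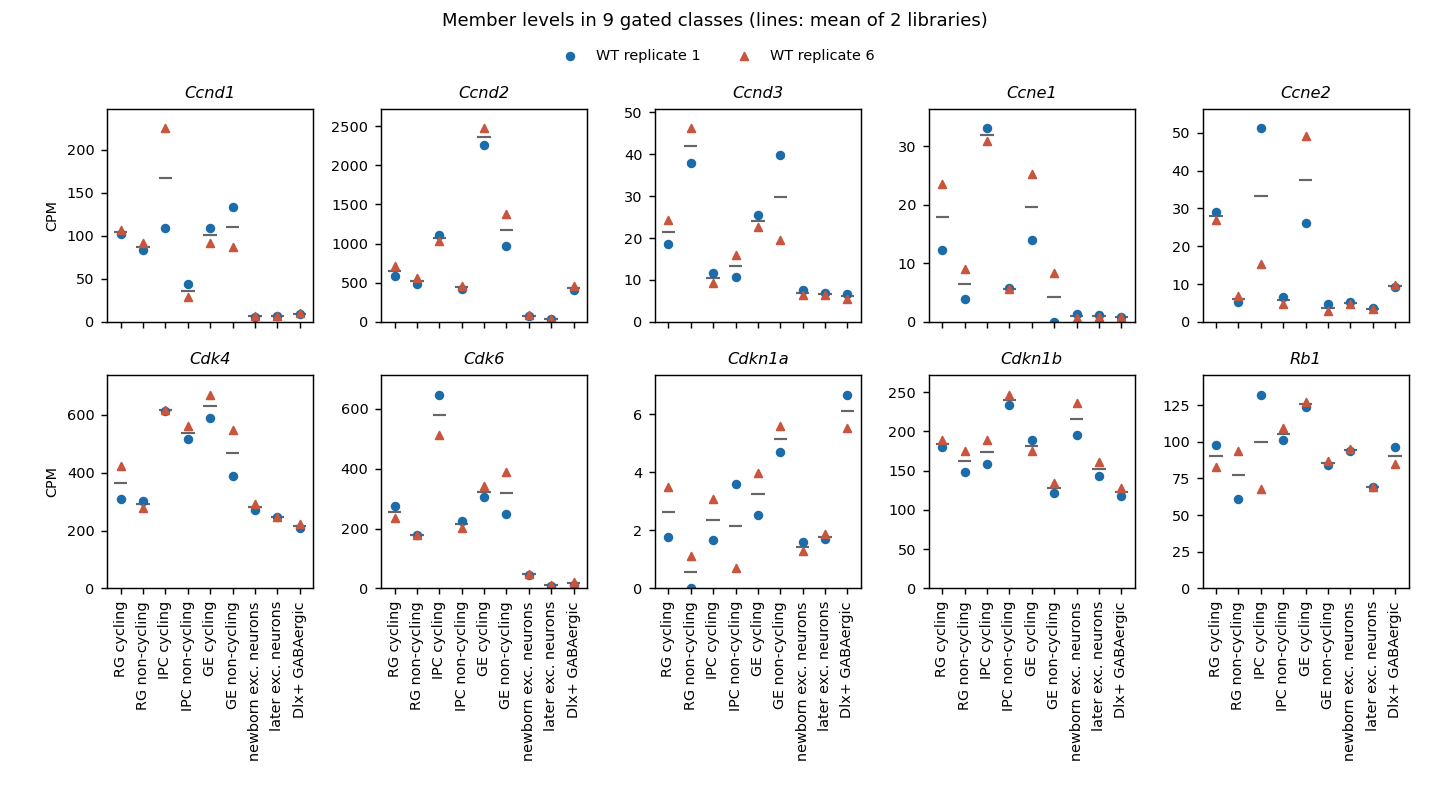
Level of each of the 10 genes in 9 progenitor and neuron classes, in counts-per-million (CPM) with an axis of its own for each gene; the 2 points in a class are WT replicates 1 and 6 and the line is their mean. Ccnd2 peaks in cycling eminence progenitors at 2256 and 2472 CPM and Cdk6 in cycling intermediate progenitors at 648 and 512 CPM, whereas Cdkn1b and Rb1 stay within a 1.96-fold and a 1.82-fold span.

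Between the cycling and the non-cycling state, the genes that moved were cyclins and Cdk6, with 3 of 9 tested members called in radial glia, 5 of 9 in intermediate progenitors and 2 of 9 in eminence progenitors. Of all genes tested, 11.8% were called in radial glia (6.76% higher and 5.05% lower in cycling cells), 15.8% in intermediate progenitors (9.86% higher, 5.98% lower) and 11.5% in eminence progenitors (6.04% higher, 5.49% lower). The median difference of the tested members was 0.33, 1.30 and 0.54 in the same order, while the median over all genes lay between -0.02 and 0.04 in each comparison reported here. Ccne2 was higher in the cycling state of all 3 progenitor types, Ccnd2 in intermediate and eminence progenitors, and Ccnd3 was the one member that fell, in radial glia. Neither Cdk4, Cdkn1b nor Rb1 was called in any of the 3 comparisons, and Cdkn1a was too low to be tested.

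**Figure D2:**
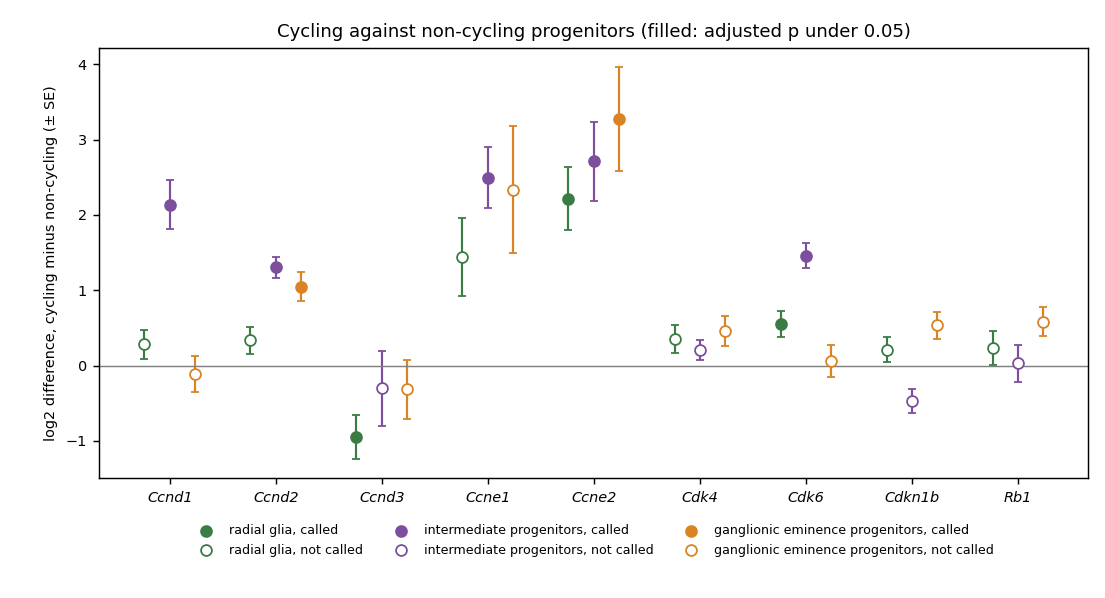
Log2 difference between the cycling and the non-cycling state (edgeR, error bars are the standard error, n = 2 libraries) for 9 members in radial glia, intermediate progenitors and eminence progenitors; filled points passed an adjusted p of 0.05 and Cdkn1a was not tested. Ccne2 lies at 2.22, 2.71 and 3.27, while Rb1 lies at 0.24, 0.03 and 0.58 with no call.

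Ccnd2, the D cyclin most tied to intermediate and basal progenitors in cortical work, had a wide span of levels across classes, second to that of Cdk6. In cycling eminence progenitors it reached 2256 and 2472 CPM in replicates 1 and 6, against 969 and 1372 CPM in non-cycling ones, a difference of 1.05 ± 0.19 (2.06-fold, adjusted p = 0.00646). In intermediate progenitors it stood at 1115 and 1034 CPM when cycling and 426 and 453 CPM when not, a rise of 1.30 ± 0.14 (2.47-fold, adjusted p = 5.22e-05). The libraries of the 2 states did not overlap in either type. Radial glia held 580.0 and 715 CPM in the cycling and 479.5 and 567 CPM in the non-cycling state, and the difference of 0.33 ± 0.17 was not called (adjusted p = 0.259). The state effect itself was larger in intermediate progenitors than in radial glia by 1.02 ± 0.22 (adjusted p = 0.0469), by 1.11 and 0.86 within the 2 libraries. That call stood close to the threshold: it was lost in 6 of the alternatives, with values down to 0.68 and adjusted p up to 0.586.

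Among cycling cells alone Ccnd2 differed between progenitor types. Cycling eminence progenitors exceeded cycling radial glia by 1.91 ± 0.16 (3.76-fold, adjusted p = 3.85e-06), and cycling radial glia differed from cycling intermediate progenitors by -0.75 ± 0.18 (1.68-fold lower, adjusted p = 0.0168). The latter call was lost with no filter on low counts (adjusted p = 0.142) and with no UMI of other lineages (-0.58, adjusted p = 0.167). Between non-cycling radial glia and non-cycling intermediate progenitors the difference was 0.23 ± 0.13 and was not called (adjusted p = 0.231). The number of cells with a Ccnd2 UMI showed the same order after each cell was thinned to 3000 UMIs: 95.6% (exact 95% interval 92.3% to 97.8%) of cycling eminence progenitors and 93.1% (84.5% to 97.7%) of cycling intermediate progenitors, against 70.6% of cycling radial glia. Such intervals cover counting error only.

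Ccnd1, the cyclin D1 gene and a common measure of the G1 to S transition, had another distribution. It was 102 and 107 CPM in cycling and 83.4 and 91.2 CPM in non-cycling radial glia, and the difference of 0.28 ± 0.19 was not called (adjusted p = 0.402). Non-cycling intermediate progenitors held 43.9 and 28.5 CPM, and cycling ones 109 and 225 CPM, a rise of 2.13 ± 0.33 (4.39-fold, adjusted p = 9.92e-04). The 2 libraries differed in the size of that rise, 1.31 in replicate 1 and 2.98 in replicate 6, where 27 cycling cells gave 73 UMIs. In eminence progenitors the 2 states overlapped, with 109 and 92.2 CPM in the cycling and 134 and 86.8 CPM in the non-cycling state (difference -0.12 ± 0.24, adjusted p = 0.827).

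The state effect on Ccnd1 was larger in intermediate progenitors than in radial glia by 1.90 ± 0.39 (adjusted p = 0.0362), by 1.02 in replicate 1 and 2.75 in replicate 6. This call was lost in 4 of 10 alternatives, with values down to 1.44 and adjusted p up to 0.447. Together with Ccnd2 this made 2 of 9 tested members whose effect differed between the 2 types, where 0.594% of all genes did, 0.509% with the larger effect in intermediate progenitors and 0.0849% in radial glia. For a difference of the state effect between eminence progenitors and radial glia 0 of 9 members were called by edgeR, where 0.141% of all genes were, 0.0376% higher and 0.103% lower. Ccnd2 was the 1 member with an unadjusted edgeR p under 0.05 there (0.74 ± 0.26, adjusted p = 0.461), and with the library as a block it was called (0.75, adjusted p = 0.0472). Non-cycling radial glia exceeded non-cycling intermediate progenitors in Ccnd1 by 1.25 ± 0.23 (2.38-fold, adjusted p = 0.00141), a call lost after thinning (0.88, adjusted p = 0.149), while the cycling cells of these types differed by -0.61 ± 0.28, which was not called (adjusted p = 0.206). Cycling eminence progenitors and cycling radial glia differed by -0.01 in Ccnd1 (adjusted p = 0.978). The 5 markers of oligodendrocyte precursors, cells with high Ccnd1, summed to 33.9 and 30.4 CPM in non-cycling radial glia and 5.76 and 6.25 CPM in non-cycling intermediate progenitors, with Pdgfra and Sox10 at 0 in both.

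Because the pair of D cyclins moved by different amounts, their ratio changed between classes. Of the Ccnd1 and Ccnd2 UMIs counted together, Ccnd1 made up 15.0% and 13.0% in cycling and 14.8% and 13.9% in non-cycling radial glia. In cycling eminence progenitors the share was 4.62% (exact 95% interval 3.97% to 5.34%) and 3.59% (3.03% to 4.23%), and in Dlx+ GABAergic neurons 2.25% and 2.15%, so that neither library of these classes reached the values of radial glia. Cycling intermediate progenitors were split between the libraries, with 8.91% in replicate 1 and 17.9% in replicate 6.

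Ccnd3, the third D cyclin, was lower in cycling than in non-cycling radial glia. It was 37.8 and 46.2 CPM in non-cycling and 18.5 and 24.4 CPM in cycling radial glia, a difference of -0.95 ± 0.29 (1.93-fold lower when cycling, adjusted p = 0.0464), with no overlap of the libraries. That call was lost in 6 of 9 alternatives, among them DESeq2 (adjusted p = 0.452). Intermediate progenitors had 11.6 and 9.26 CPM when cycling, from 7 and 3 UMIs, and 10.8 and 15.98 CPM when not (adjusted p = 0.734). Non-cycling radial glia exceeded non-cycling intermediate progenitors by 1.62 ± 0.30 (3.08-fold, adjusted p = 0.00175), but by 0.85 with no UMI of other lineages (adjusted p = 0.145) and by 1.02 after thinning (adjusted p = 0.144), which ended the call. Ccnd3 was abundant in cells around vessels, at 112 and 165 CPM in mural cells and 138 and 152 CPM in fibroblasts. The 7 mural markers summed to 126 and 114 CPM in non-cycling and 54.7 and 50.5 CPM in cycling radial glia, but to 8.64 and 6.95 CPM in non-cycling intermediate progenitors, with Abcc9 at 0 in both radial glia states and Kcnj8 at 0 in the cycling one. Their part in the Ccnd3 results was not tested, and among cells with no UMI of other lineages the state difference in radial glia was -0.56 (adjusted p = 0.564).

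Of the E cyclins, Ccne2 was the only member called in all 3 progenitor types, while Ccne1 was called in intermediate progenitors alone in the main test. Ccne2, cyclin E2, stood at 29.1 and 27.0 CPM in cycling and 5.21 and 6.76 CPM in non-cycling radial glia, a rise of 2.22 ± 0.41 (4.65-fold, adjusted p = 0.00159). In intermediate progenitors it rose by 2.71 ± 0.53 (6.55-fold, adjusted p = 0.00478), although replicate 1 gave 51.2 CPM and replicate 6 only 15.4 CPM in the cycling state, from 31 and 5 UMIs, with rises of 2.93 and 1.70 within the libraries. Cycling eminence progenitors held 26.0 and 49.1 CPM and non-cycling ones 4.69 and 2.80 CPM (3.27 ± 0.69, adjusted p = 0.0133, within libraries 2.17 and 3.56). Since the non-cycling eminence cells gave 3 UMIs in all, the ratio of the pooled counts of 9.74 had an exact 95% interval from 3.25 to 47.9.

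Ccne1, cyclin E1, had its highest level in cycling intermediate progenitors, with 33.1 and 30.9 CPM against 5.76 and 5.56 CPM in non-cycling ones, a rise of 2.50 ± 0.41 (5.64-fold, adjusted p = 0.00156). Its libraries there lay above those of every other class. Radial glia held 12.3 and 23.5 CPM when cycling and 3.91 and 9.01 CPM when not. This difference of 1.45 ± 0.52 was not called in the main test (adjusted p = 0.0841) but was with the library as a block (1.48, adjusted p = 0.0259). In eminence progenitors the values were 14.0 and 25.2 CPM against 0 and 8.40 CPM, and the difference of 2.33 ± 0.84 was not called in the main test (adjusted p = 0.112) but was with the block (0.0415) and with no filter on low counts (0.0281).

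For the start of Ccne1 (chromosome 7, 38097984 to 38107490, GRCm38.p6), RefSeq gives the 250 bases before the transcription start, chr7:38107491-38107740 on the minus strand. They are shown because Ccne1 is a textbook target of E2f factors, and TCCCGC, which lies in their usual motif, occurs 2 times here over both strands (capitals). Of 32851 promoter windows of this length, 16.9% held at least 1 match and 3.55% at least 2.
Ccne1 promoter: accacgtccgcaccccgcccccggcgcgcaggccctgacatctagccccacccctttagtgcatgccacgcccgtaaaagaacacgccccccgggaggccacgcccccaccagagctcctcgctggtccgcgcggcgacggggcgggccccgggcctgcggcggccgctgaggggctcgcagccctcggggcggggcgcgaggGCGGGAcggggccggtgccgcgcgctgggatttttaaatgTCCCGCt
The letters were searched after the sequence had been seen, and a match is not a measured binding site. Promoters were found for 6 of the 10 members.

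Cdk4 and Cdk6, the catalytic partners of the D cyclins, behaved differently from each other. Cdk6 was called in radial glia, with 274 and 237 CPM in the cycling and 177 and 177 CPM in the non-cycling state (0.55 ± 0.17, 1.47-fold, adjusted p = 0.0490), and in intermediate progenitors, with 648 and 512 CPM against 226 and 203 CPM (1.46 ± 0.16, 2.75-fold, adjusted p = 9.42e-05). In eminence progenitors the states overlapped, at 305 and 342 CPM when cycling and 248.7 and 389 CPM when not (0.06 ± 0.21, adjusted p = 0.913). By phase scores 32.7% and 43.8% of these non-cycling cells were in S. The rise in radial glia was lost in 6 of 10 alternatives, among them DESeq2 (adjusted p = 0.256). The effect was larger in intermediate progenitors than in radial glia by 0.96 ± 0.24, which was not called in the main test (adjusted p = 0.0870) but was with the library as a block (0.00905) and with no filter on low counts (0.0406).

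Cdk4, in contrast, was called between kinds of progenitor but in no state comparison of the main test. Its cycling libraries still lay above its non-cycling ones in each progenitor type, and whether kind or state weighed more was not tested. It stood at 615 and 617 CPM in cycling and 515 and 562 CPM in non-cycling intermediate progenitors (0.21 ± 0.14, adjusted p = 0.353), and at 308 and 422 CPM in cycling and 302 and 278 CPM in non-cycling radial glia (0.36 ± 0.19, adjusted p = 0.266). Radial glia lay below intermediate progenitors in both states, with differences of -0.77 ± 0.20 when cycling (1.71-fold, adjusted p = 0.0237) and -0.91 ± 0.13 when not (1.88-fold, adjusted p = 3.07e-04). The Cdk4 call in cycling cells was lost with no filter (adjusted p = 0.186), with no UMI of other lineages (0.0619) and after thinning (0.142). In cycling cells Cdk6 was lower in radial glia too (-1.21 ± 0.20, 2.31-fold, adjusted p = 0.00158). Cycling eminence progenitors exceeded cycling radial glia in Cdk4 by 0.83 ± 0.18 (1.78-fold, adjusted p = 0.00513; 0.0672 with no filter) and in Cdk6 by 0.38 ± 0.16, the latter called only with the block (main adjusted p = 0.0983, with the block 0.00162). Between the eminence states Cdk4 was 588 and 669.8 CPM when cycling and 389 and 546 CPM when not, a difference of 0.46 ± 0.20 that was not called in the main test (adjusted p = 0.171) but was with the block (0.0439) and with all 9 classes in a fit (0.0416).

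The 250 bases before the start of Cdk4 (gene at chromosome 10, 127063535 to 127067288; window chr10:127063285-127063534, plus strand, RefSeq, GRCm38.p6) held the E-box CACGTG 4 times, marked in capitals. It is shown because 7 of the 32851 windows held as many, while 6.02% held at least 1. The motif reads the same on both strands and was chosen after the sequence had been seen, so the count describes the letters and not a bound factor.
Cdk4 promoter: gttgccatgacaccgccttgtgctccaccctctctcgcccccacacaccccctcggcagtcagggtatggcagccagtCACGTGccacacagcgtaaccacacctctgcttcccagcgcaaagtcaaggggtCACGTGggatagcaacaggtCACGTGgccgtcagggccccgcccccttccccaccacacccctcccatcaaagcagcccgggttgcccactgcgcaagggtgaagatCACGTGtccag

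Counts by comparison of progenitor types were as follows. In cycling radial glia against cycling intermediate progenitors 3 of 9 tested members were called, all lower in radial glia (Ccnd2, Cdk4 and Cdk6), where 12.7% of all genes were called, 7.27% higher and 5.38% lower. In the non-cycling cells of these types 4 of 7 tested members were called, Ccnd1 and Ccnd3 higher and Cdk4 and Cdkn1b lower in radial glia, where 28.7% of all genes were, 16.3% higher and 12.4% lower. In cycling eminence progenitors against cycling radial glia 3 of 9 tested members were higher (Ccnd2, Cdk4 and Rb1), against 24.9% of all genes called, 11.4% higher and 13.5% lower. Dissociation-response genes also differed between these types: Jun, an immediate early gene, stood at 281 CPM in cycling radial glia, 60.9 CPM in cycling intermediate progenitors and 86.4 CPM in cycling eminence progenitors, and Fos at 51.4 CPM in non-cycling radial glia against 7.89 CPM in cycling ones (-2.66, adjusted p = 3.82e-05). Of that list of 10 genes, 3 of 5 tested were lower in cycling than in non-cycling radial glia, where 5.05% of all genes were lower. Their part in the members' results was not tested.

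Cdkn1b (p27), the inhibitor linked to cell-cycle exit in many tissues, had its highest class means in non-cycling intermediate progenitors and newborn neurons. Non-cycling intermediate progenitors held 233 and 247 CPM and newborn neurons 195 and 236 CPM, overlapping each other, and both above the 179.8 and 189 CPM of cycling radial glia. Cycling intermediate progenitors held 159 and 188 CPM, and the difference of -0.47 ± 0.16 from the non-cycling ones was not called in the main test (adjusted p = 0.0728) but was with the library as a block (adjusted p = 0.0222) and with all 9 classes in a fit (0.0174). Radial glia in the 2 states differed by 0.21 ± 0.17 (adjusted p = 0.498), and cycling eminence progenitors exceeded non-cycling ones by 0.54 ± 0.18, which was not called in the main test (adjusted p = 0.0908) but was with all 9 classes in a fit (0.0171) and with doublets kept (0.0403). Non-cycling radial glia differed from non-cycling intermediate progenitors by -0.59 ± 0.14 (1.502-fold lower, adjusted p = 0.00834), a call that DESeq2 and thinning did not keep. The 5 Cajal-Retzius markers summed to 139 and 41.0 CPM in non-cycling and 4.96 and 0 CPM in cycling intermediate progenitors, with Trp73 at 0 in both, and their part in the Cdkn1b values was not tested.

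Rb1, whose protein gates the E2f factors, was the flattest member. Its class means ran from 69.1 CPM in later neurons to 126 CPM in cycling eminence progenitors, and the libraries of the 8 classes from second to lowest overlapped with a neighbour at each step. It was 97.8 and 82.6 CPM in cycling and 61.2 and 93.5 CPM in non-cycling radial glia, 132 and 67.9 CPM in cycling and 102 and 109 CPM in non-cycling intermediate progenitors, and 124 and 127 CPM in cycling and 84.5 and 86.8 CPM in non-cycling eminence progenitors. Only the eminence states did not overlap, and that difference of 0.58 ± 0.20 was not called in the main test (adjusted p = 0.0891) but was with doublets kept (0.0278). Cycling eminence progenitors exceeded cycling radial glia by 0.52 ± 0.17 (1.43-fold, adjusted p = 0.0430), which was lost in 5 alternatives with adjusted p up to 0.277. Non-cycling radial glia differed from non-cycling intermediate progenitors by -0.45 ± 0.20 (main adjusted p = 0.114, called with the block at 0.0454 and with no filter at 0.0366).

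To see where in the cycle the members stood, cells of each progenitor type were split into G1, S and G2/M by phase scores built from other genes, and 12.5% of radial glia, 8.35% of intermediate progenitors and 7.05% of eminence progenitors lay close to a boundary. Ccnb1, which was not among the scored genes, was 3.20 and 0 CPM in G1, 11.7 and 5.49 CPM in S and 282 and 265 CPM in G2/M of radial glia. These values are a description and carry no test. Ccne2 was the most phase-bound member, at 1.60 and 1.41 CPM in G1, 56.7 and 64.0 CPM in S and 14.7 and 5.83 CPM in G2/M of radial glia. In intermediate progenitors its S level was 93.3 and 42.9 CPM and in eminence progenitors 47.3 and 81.8 CPM, and in all 3 types both S libraries lay above both libraries of G1 and of G2/M.

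Ccne1 had the same order in radial glia, with 0 and 2.83 CPM in G1, 33.2 and 31.1 CPM in S and 3.92 and 18.5 CPM in G2/M. Ccnd1 in radial glia was also highest in S, at 125 and 139 CPM, with 83.2 and 58.0 CPM in G1 and 88.3 and 96.2 CPM in G2/M. In intermediate progenitors Ccnd1 was 20.5 and 32.9 CPM in G1, 225 and 143 CPM in S and 83.0 and 198 CPM in G2/M. All libraries of S and G2/M therefore lay above those of G1 there.

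Ccnd2 lay close together in the G1 cells of the 3 progenitor types and far apart in their S and G2/M cells. It was 512 and 491 CPM in G1 and 453 and 666 CPM in S of radial glia, which overlap, but 368 and 423 CPM against 1223 and 1119 CPM in intermediate progenitors, and 437 and 416 CPM against 1860.1 and 2369 CPM in eminence progenitors. Its G2/M level of 2387 and 2543 CPM in eminence progenitors was the highest of any phase. In G1 all values were within 368 to 512 CPM, whereas in G2/M they ran from 593 and 728 CPM in radial glia to 2387 and 2543 CPM in eminence progenitors.

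Cdk6 showed a similar step, from 160.0 and 151 CPM in G1 to 259.8 and 262 CPM in S of radial glia, and from 197 and 199.8 CPM to 624 and 529 CPM in intermediate progenitors. In eminence progenitors Cdk6 was 149 and 131 CPM in G1, 361 and 437 CPM in S and 304 and 332 CPM in G2/M. Cdk4 in radial glia was 312 and 242 CPM in G1, 311 and 448 CPM in S and 303 and 405 CPM in G2/M, with all phases overlapping. In intermediate progenitors it was 490 and 546 CPM in G1, 750 and 671 CPM in S and 581 and 597 CPM in G2/M. Eminence progenitors held 254 and 420 CPM in G1, 669 and 679 CPM in S and 566 and 672 CPM in G2/M. In both of these types S and G2/M lay above G1. Cdkn1b ran the other way in intermediate progenitors, at 246 and 247 CPM in G1 and 113 and 162 CPM in S, and its G2/M level of 174 and 243 CPM lay between. In radial glia Cdkn1b was 157 and 187 CPM in G1 and 117 and 163 CPM in S, which overlap. Its G2/M level there, 189 and 201 CPM, lay above both. In eminence progenitors Cdkn1b was 102 and 135 CPM in G1, 130 and 137 CPM in S and 209 and 190 CPM in G2/M, also highest in G2/M. Ccnd3 in radial glia was 41.6 and 49.5 CPM in G1, 29.3 and 29.3 CPM in S and 16.7 and 23.3 CPM in G2/M, a descent without overlap.

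**Figure D3:**
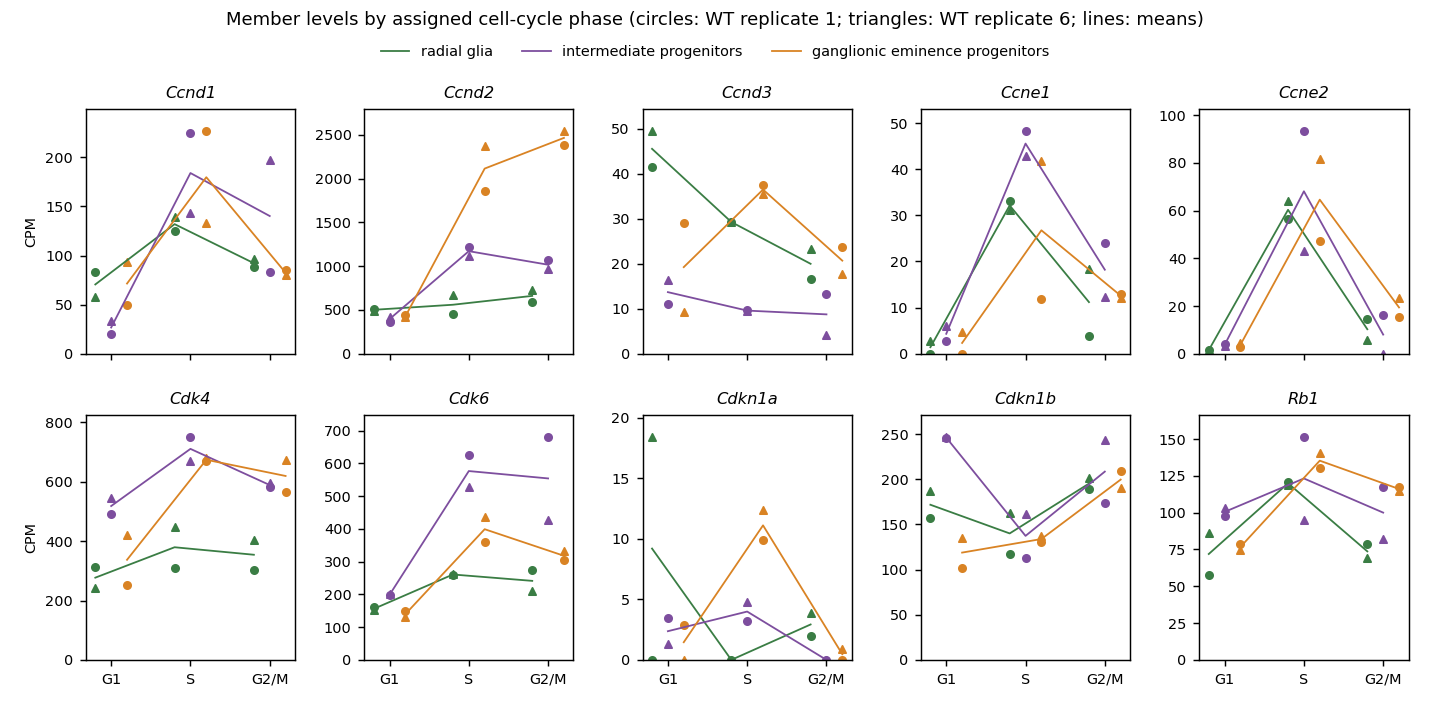
Level of each member in counts-per-million (CPM) in cells scored as G1, S or G2/M, for radial glia, intermediate progenitors and eminence progenitors; circles are WT replicate 1, triangles WT replicate 6 and lines join the means. Ccne2 peaks in S in all 3 types (56.7 and 64.0 CPM in radial glia), and Ccnd2 is higher in S than in G1 in intermediate and eminence progenitors but overlaps between these phases in radial glia.

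The phase split bears on the state comparisons, since cycling and non-cycling classes differed in phase: 77.8% and 79.2% of cycling radial glia were scored G2/M, against 67.4% and 69.2% of non-cycling ones in G1. A cycling class here is therefore mostly a class in S and G2/M, and G1 cells that will divide again are largely counted as non-cycling. Among cells scored G2/M alone, the calls between cycling cells of different progenitor types were kept, 6 of 6, in a check added after the data had been seen.

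Ccnd1, Ccnd2, Ccne1 and both kinases were lower in newborn neurons than in the progenitors before them, while Ccnd3, Ccne2, Cdkn1b and Rb1 were not called. From non-cycling intermediate progenitors to newborn excitatory neurons, 5 of 9 tested members fell and 0 rose, where 37.6% of all genes were called, 19.4% higher and 18.2% lower. Ccnd2 went from 426 and 453 CPM to 70.0 and 88.1 CPM (fell by 2.38, SE 0.13, 5.20-fold, adjusted p = 5.15e-07), and Ccnd1 from 43.9 and 28.5 CPM to 5.47 and 7.30 CPM (fell by 2.40, SE 0.28, 5.29-fold, adjusted p = 8.12e-05, within libraries -3.00 and -1.97). Cdk6 went from 226 and 203 CPM to 45.9 and 47.5 CPM (fell by 2.10, SE 0.11, 4.28-fold, adjusted p = 4.18e-07). These 3 genes had no overlap between the classes, and all 3 calls were kept in every alternative run.

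Cdk4 fell less, from 515 and 562 CPM to 271 and 292 CPM (1.78-fold, adjusted p = 1.76e-04), and so remained at the level of non-cycling radial glia, 302 and 278 CPM, whose libraries it overlapped. Ccne1 fell from 5.76 and 5.56 CPM to 1.30 and 0.649 CPM (5.20-fold, adjusted p = 0.00580, within libraries -2.16 and -3.02). Ccnd3 was 10.8 and 15.98 CPM before and 7.63 and 6.33 CPM after (difference -0.84 ± 0.31, main adjusted p = 0.0599, called with the block at 0.0492 and in 4 other alternatives). Neither Cdkn1b (-0.06 ± 0.12, adjusted p = 0.744) nor Rb1 (-0.06 ± 0.11, adjusted p = 0.715) was called, and Ccne2 differed by -0.09 (adjusted p = 0.882). The libraries of Cdkn1b overlapped, so no rise of this inhibitor was detectable between these classes. Of the non-cycling intermediate progenitors, 106 of 148 and 136 of 169 carried Neurod2 or Neurod6. Whether these cells had already left the cycle was not tested.

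The step could be read more finely from marker counts within these classes, as values with no test. Non-cycling intermediate progenitors without a Neurod2 or Neurod6 UMI, both genes of maturing neurons, held Ccnd2 at 381 and 596 CPM and those with one at 443 and 423 CPM. Newborn neurons that still had 1 Eomes UMI stood at 199.9 and 255 CPM, newborn neurons without Eomes at 59.7 and 67.5 CPM and later neurons at 41.5 and 43.8 CPM. Ccnd2 thus declined with no overlap over the last 4 of these groups. Cdk6 followed with 255 and 219 CPM in progenitors with Neurod2 or Neurod6, 190.1 and 103 CPM in newborn neurons with Eomes, 34.5 and 40.7 CPM without it, and 8.14 and 11.96 CPM in later neurons.

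Ccnd1 was already low in the first neuronal group, where it rested on 2 and 5 UMIs, so that a further decline could not have been read. It was 38.3 and 27.0 CPM in progenitors with Neurod2 or Neurod6 and 3.92 and 7.36 CPM in newborn neurons with Eomes, the same range as the 5.60 and 7.30 CPM of newborn neurons without it and the 6.44 and 7.42 CPM of later neurons. Cdkn1b was 149 and 175 CPM in non-cycling radial glia, 192 and 222 CPM in progenitors without Neurod2 or Neurod6, 248 and 252 CPM in those with, 237 and 269 CPM in newborn neurons with Eomes, 192 and 232 CPM in those without and 142 and 161 CPM in later neurons. Its highest values were thus on either side of the boundary between progenitor and neuron, and the later neurons overlapped the radial glia.

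**Figure D4:**
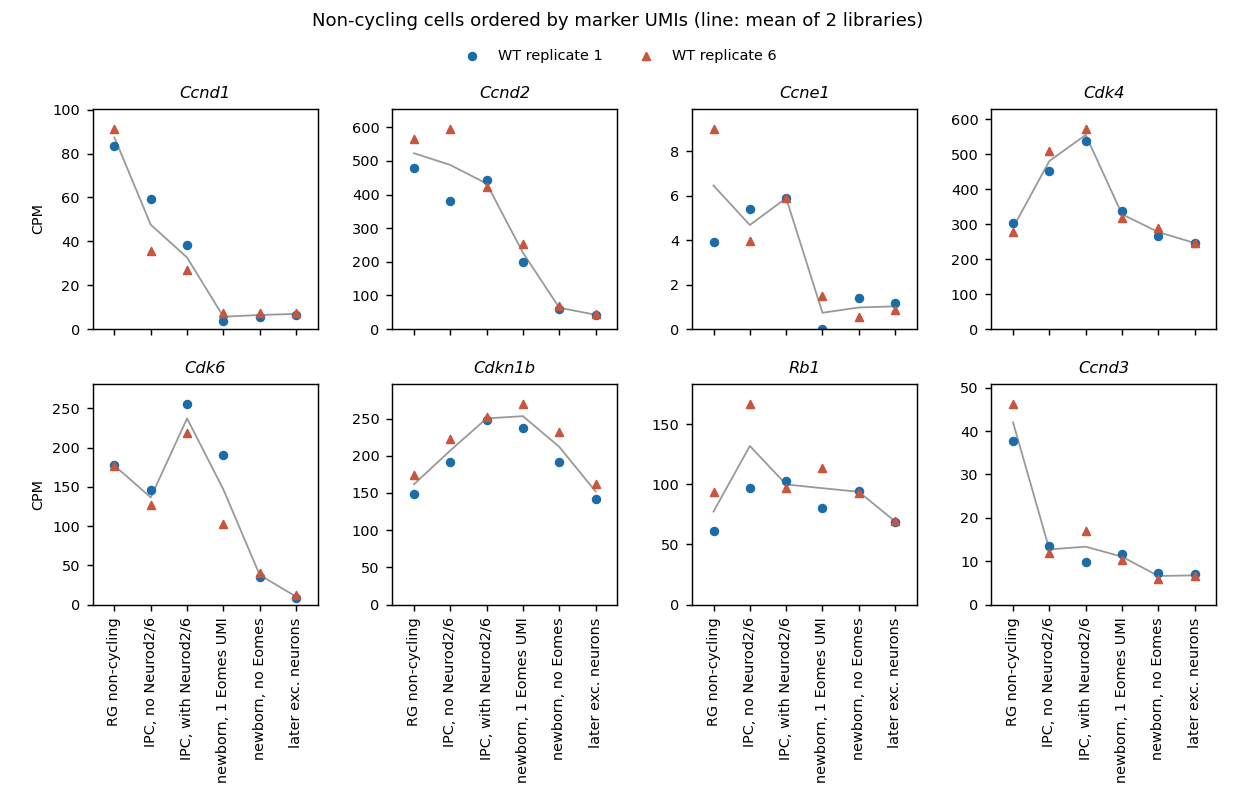
Level in counts-per-million (CPM, an axis for each gene) of 8 members along 6 groups of non-cycling cells ordered from radial glia to later excitatory neurons; points are WT replicates 1 and 6 and the line joins their means. Ccnd2 declines from 443 and 423 CPM to 41.5 and 43.8 CPM over the last 4 groups, and Cdkn1b peaks at 248 and 252 CPM and 237 and 269 CPM on either side of the step to neurons.

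From newborn to later excitatory neurons 4 of 10 tested members fell and 0 rose, where 9.96% of all genes were called, 4.97% higher and 4.98% lower. Cdk6 went on falling, from 45.9 and 47.5 CPM to 8.14 and 11.96 CPM (fell by 2.18, SE 0.15, 4.55-fold, adjusted p = 1.09e-04), and Ccnd2 went from 70.0 and 88.1 CPM to 41.5 and 43.8 CPM (1.82-fold, adjusted p = 0.00128). Cdkn1b also fell, from 195 and 236 CPM to 142 and 161 CPM (fell by 0.48, SE 0.10, 1.40-fold, adjusted p = 0.0136), as did Rb1, from 93.5 and 95.4 CPM to 69.1 and 69.2 CPM (fell by 0.43, SE 0.07, 1.35-fold, adjusted p = 0.00525). The Rb1 call was lost when all 9 classes shared a fit and after thinning. Ccnd1 differed by 0.15 (adjusted p = 0.756), Cdk4 by -0.17 ± 0.07 (main adjusted p = 0.193, called with the block at 0.0281), and Cdkn1a, tested here, by 0.32 ± 0.37 (adjusted p = 0.682).

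The shares of cells placed these levels beside those of erythroid cells, used as a guide to free RNA, which gives stray UMIs in droplets. Of the erythroid cells 41.9% and 38.4% were scored G2/M in replicates 1 and 6. Whether their UMIs were their own transcripts was not tested. At 3000 UMIs per cell 1.70% (exact 95% interval 1.08% to 2.54%) of newborn neurons and 2.09% (1.59% to 2.69%) of later neurons had a Ccnd1 UMI. Among erythroid cells the share was 0.358% (0.00907% to 1.98%), and its interval overlapped both. Before thinning the shares were 5.52% of newborn neurons and 1.07% of erythroid cells, at medians of 8534 and 3504 UMIs. For Ccnd2 the share in later neurons, 9.82% (8.74% to 10.99%), likewise overlapped the 8.24% (5.30% to 12.1%) of erythroid cells, while newborn neurons with 17.5% (15.5% to 19.7%) lay above it. Cdk6 was found in 11.99% (10.3% to 13.8%) of newborn and 3.09% (2.48% to 3.81%) of later neurons, both above the 0.358% of erythroid cells. Residual Ccnd1 in neurons and Ccnd2 in later neurons cannot be told from free RNA by these shares.

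In the ventral lineage, Dlx+ GABAergic neurons were set against non-cycling eminence progenitors, and 5 of 9 tested members were lower, with 0 higher, where 19.2% of all genes were called, 9.06% higher and 10.1% lower. Cdk6 showed the widest gap of any member in the comparisons tested, 248.7 and 389 CPM in the progenitors and 11.1 and 22.3 CPM in the neurons (fell by 4.20, SE 0.29, 18.4-fold, adjusted p = 1.24e-05). Ccnd1 went from 134 and 86.8 CPM to 9.499 and 10.1 CPM (10.9-fold, adjusted p = 2.74e-05), Ccnd3 from 39.9 and 19.6 CPM to 6.67 and 5.52 CPM (4.77-fold, adjusted p = 0.00522), and Cdk4 from 389 and 546 CPM to 208 and 222 CPM (2.08-fold, adjusted p = 0.00182). The libraries of these classes did not overlap for any of the 4 genes. Cdkn1b again was not called, with 122 and 134 CPM before and 117 and 128 CPM after (-0.01 ± 0.16, adjusted p = 0.977), nor was Rb1 (0.14 ± 0.18, adjusted p = 0.647).

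Ccnd2 was the exception among neurons, in that it stayed at 413 and 460.1 CPM in GABAergic neurons, against 969 and 1372 CPM in their progenitors (2.57-fold lower, adjusted p = 5.15e-04) and 70.0 and 88.1 CPM in newborn excitatory neurons. At 3000 UMIs, 27.5% (25.1% to 29.9%) of GABAergic neurons had a Ccnd2 UMI, above the 8.24% of erythroid cells. Among cells scored G1 alone, a check added after the data had been seen, the difference from progenitors was -0.56 for Ccnd2 (adjusted p = 0.0910), -1.77 for Ccnd3 (adjusted p = 0.231) and -0.72 for Cdk4 (adjusted p = 0.0747), so that these 3 calls were lost, while Ccnd1 and Cdk6 kept theirs.

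Ccnd2 was also read in 4 groups of GABAergic neurons, each with at least 2 UMIs of a lineage gene and none of the other 3 genes. In replicates 1 and 6 they held 64 and 66 (Lhx6), 52 and 48 (Prox1), 55 and 38 (Ebf1) and 121 and 115 (Tshz1) of 896 and 916 cells. Most of the class was therefore left out. Between these groups Ccnd2 was far from uniform. Cells with Prox1, carried by caudal eminence and other late-born interneurons, held 712 and 859 CPM, cells with Tshz1 324 and 209 CPM, cells with Lhx6, a gene of medial eminence interneurons, 48.8 and 112 CPM, and cells with Ebf1, found in striatal projection neurons, 58.5 and 35.9 CPM. The Prox1 group, of 52 and 48 cells, lay above the other 3 in both libraries, and the Tshz1 group above the remaining pair. Cdk4 varied far less, from 168 CPM at the lowest to 294 CPM at the highest over the 4 groups and both libraries. Cdk6 was between 0 and 13.5 CPM in all of them. These groups were described with no test.

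Cdkn1a (p21), a target of p53 that halts the cycle after damage, was close to absent from progenitors and neurons. It gave 0 and 1.13 CPM in non-cycling and 1.76 and 3.48 CPM in cycling radial glia, 1.58 and 1.30 CPM in newborn neurons and 6.67 and 5.52 CPM in GABAergic neurons. The phase groups, which also hold cells neither cycling nor non-cycling, gave up to 0 and 18.4 CPM in G1 radial glia, from 0 and 13 UMIs. In S eminence progenitors they gave 9.86 and 12.4 CPM, from 5 and 8 UMIs. At 3000 UMIs Cdkn1a was found in 0.444% (0.163% to 0.964%) of newborn neurons, which overlaps the 0.358% of erythroid cells, so it was not detectable above the erythroid share there. Endothelial cells, in contrast, held 235 and 257 CPM, with a UMI in 40.0% (30.3% to 50.3%) of thinned cells. Cajal-Retzius cells, the early-born Reln-positive neurons of the marginal zone, had 71.0 and 53.1 CPM and 13.8% (7.07% to 23.3%) of cells, and microglia 67.1 and 45.8 CPM and 8.41% (3.92% to 15.4%).

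Of the D cyclins, Ccnd1 and Ccnd3 were also high in other cell types, again as levels without a test. Oligodendrocyte precursors carried the highest Ccnd1 of any class, 286 and 355 CPM, with a UMI in 59.6% (45.1% to 73.0%) of thinned cells, and endothelial cells followed at 213 and 244 CPM and microglia at 191 and 209 CPM. The last 2 types held Ccnd2 at only 77.5 and 78.5 CPM and 51.2 and 66.0 CPM, well below the 580.0 and 715 CPM of cycling radial glia. Ccnd3 reached 125 and 89.8 CPM in microglia and 100.3 and 123 CPM in endothelial cells. Cajal-Retzius cells had little Ccnd2, at 11.1 and 12.3 CPM, and little Cdk6, at 2.22 and 2.04 CPM, while Cdk4 stood at 79.9 and 108 CPM and Ccnd3 at 11.1 and 10.2 CPM. Cdkn1b in them, at 86.5 and 129 CPM, was below every excitatory class without overlap.

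**Figure D5:**
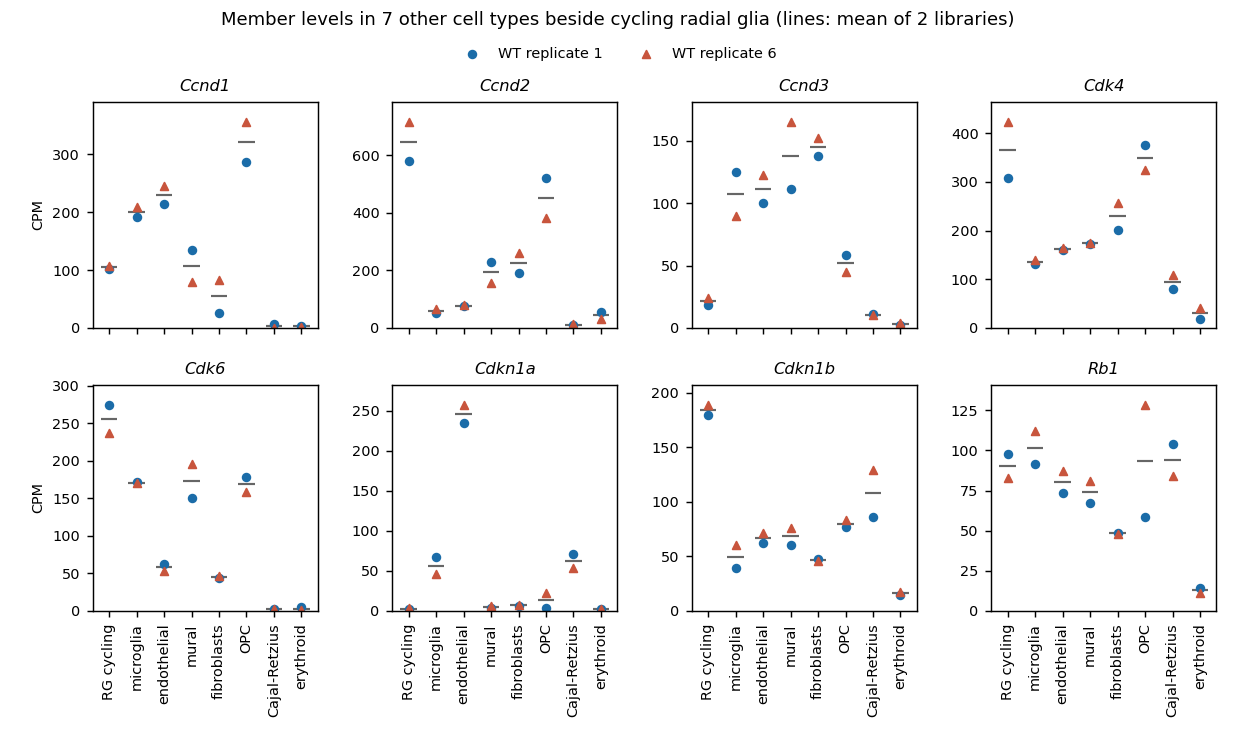
Level in counts-per-million (CPM, an axis for each gene) of 8 members in cycling radial glia and in 7 other cell types found by their markers; points are WT replicates 1 and 6. Cdkn1a is high in endothelial cells (235 and 257 CPM) and Ccnd1 in oligodendrocyte precursors (286 and 355 CPM). Erythroid cells serve as a guide to free RNA.

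Around the members, a list of 19 partners of the Rb1 and E2f step was read by count. In cycling against non-cycling cells 7 of 19 were higher in radial glia, 10 of 19 in intermediate progenitors and 6 of 19 in eminence progenitors, with 0 lower, and medians of 0.50, 1.43 and 0.48. Of all genes tested, 6.76%, 9.86% and 6.04% were higher in the same order, and 5.05%, 5.98% and 5.49% lower. Cks1b, a small subunit of Cdk complexes, stood at 260.5 CPM against 48.6 CPM in radial glia (2.43, adjusted p = 6.71e-07), and the atypical repressors E2f7 and E2f8 at 45.5 CPM against 2.43 CPM and 37.2 CPM against 2.43 CPM. Among cycling cells, E2f1 was lower in radial glia than in intermediate progenitors (29.3 CPM against 94.5 CPM, -1.66, adjusted p = 0.00123), as were Tfdp2 and E2f3, whereas E2f5, which pairs with pocket proteins in quiescence, was higher (116 CPM against 42.3 CPM, 1.45, adjusted p = 0.00191). At the step to newborn neurons 7 of 16 tested were lower and 0 higher (median -0.48), where 18.2% of all genes were lower and 19.4% higher. E2f1 fell there from 34.5 CPM to 5.68 CPM (adjusted p = 1.25e-04) and Cdk2 from 5.30 CPM to 0.594 CPM (adjusted p = 0.00317). In GABAergic neurons 9 of 18 tested were lower and 0 higher (median -0.83), where 10.1% of all genes were lower and 9.06% higher.

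The other CDK inhibitors did not move as a block. Cdkn2c (p18) and Cdkn2d (p19), which bind Cdk4 and Cdk6, were higher in the cycling state of all 3 progenitor types: Cdkn2c stood at 68.3 CPM against 6.37 CPM in radial glia (3.37, adjusted p = 6.59e-06) and at 60.4 CPM against 12.1 CPM in intermediate progenitors (2.29, adjusted p = 0.00110). Cdkn1c (p57), the third Cip/Kip gene, ran opposite, at 26.3 CPM in cycling and 76.0 CPM in non-cycling intermediate progenitors (-1.53, adjusted p = 0.00241). It was 16.9 and 11.3 CPM in non-cycling radial glia, 73.4 and 78.5 CPM in non-cycling intermediate progenitors, 91.3 and 89.4 CPM in newborn neurons and 99.6 and 108 CPM in later neurons, an ascent with no overlap from class to class. The rise from intermediate progenitors to newborn neurons was called (0.35, adjusted p = 0.0369), as was that from eminence progenitors to GABAergic neurons (26.2 CPM to 52.9 CPM, 1.03, adjusted p = 0.0383). Cdkn1c was thus called higher at both of these steps to neurons and Cdkn1b at neither, while Cdkn1a was not tested at the excitatory one. The difference between the change of Cdkn1c and that of Cdkn1b was not tested. Both Cdkn1c calls stood close to the threshold, and the alternatives were read for the members alone. Cdkn2a and Cdkn2b stayed at or under 3.09 CPM in all 9 classes and were not tested.

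The genes whose levels over the 9 classes and 2 libraries (18 points that share libraries and depth, 7430 genes) were most like each member are given as a description, by Pearson's r of log2(CPM + 1). For Ccnd1 these were Lmcd1 (0.982) and the replication genes Mcm2 (0.980) and Mcm3 (0.978), and for Ccnd2 they were Cdca7 (0.965), Tox3 (0.959) and Clic4 (0.958). Cdk4 was most like Prpf31 (0.957), Rbm8a (0.939) and Baz1a (0.938), and Cdk6 most like Tead2 (0.9554), Rnaseh2b (0.945) and Mrpl13 (0.942). For Cdkn1b the best match was weaker, Gm11266 at 0.812, and for Rb1 it was Thoc2 at 0.817. Among the members Ccnd1 and Cdk6 had an r of 0.90 and Ccnd1 and Ccnd2 of 0.84, while Ccnd2 and Cdkn1b stood at -0.10.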

How the data were processed

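Single-cell 3' v3.1 libraries (10x Genomics) of 2 WT samples were analysed. The authors deposited raw UMI counts per gene and cell, and the submitters' processing notes name Cell Ranger 7.0.0 and mm10; whether intronic reads were counted is not given in the sources used here. The files held 14136 and 13046 barcodes with 74930397 and 68964234 UMIs in replicates 1 and 6. Barcodes passed with 1500 to 60000 UMIs if less than 10% of these were mitochondrial, and doublets were removed with Scrublet at 0.8% per 1000 cells (920 and 857 cells). Doublet calls took larger shares of gated non-neural cells, up to 33.3% and 44.2% of endothelial cells. Cells meeting several gates (41 and 45) or none (3104 and 2828) entered no class.

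Counts were summed per class and library, cells being no replicates, and tested with edgeR 4.0.16 in R 4.3.3 (TMM, filterByExpr, quasi-likelihood test, Benjamini-Hochberg adjustment over all genes tested, n = 2 libraries per class). Within-library differences used a prior count of 0.5. The 2 libraries differed beyond sampling noise. Since the classes of a comparison came from the same libraries, their deviations were checked for pairing: the correlation over genes ran from 0.104 to 0.390, and the library was fitted as a replicate block as an alternative. Cells were thinned to 3000 UMIs for shares, and intervals are exact binomial (95%). Phases came from 42 S and 52 G2/M genes without the members (scanpy 1.11.5). On simulated data for radial glia (9346 genes) the test recovered 55% of genes changed by log2 1 and 96% of those changed by log2 2, and for intermediate progenitors (8903 genes) 49% and 98%. Other alternatives were RLE size factors, DESeq2 1.42.0, no filter on low counts, all classes in a joint fit, doublets kept, a stricter cell filter, cycling by both genes, no UMI of other lineages and thinned cells.

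Named genes were the 10 members, from each gene list up to 4 genes with the lowest adjusted p and every further CDK inhibitor, and the 3 genes most like each member. The members, lists, gates and tests were chosen with earlier results of these data known. Promoter sequences and gene positions were taken from RefSeq (GRCm38.p6).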

Additional observations from a re-analysis of the deposited data

Results flagged for a closer look

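The effect of the cycling state differed between intermediate progenitors and radial glia by a test of the difference itself for 2 members. Ccnd1 gave 1.90 on the log2 scale (adjusted p = 0.0362) and Ccnd2 gave 1.02 (adjusted p = 0.0469). The Ccnd1 call was lost in 4 of 10 alternatives and the Ccnd2 call in 6 of 10, with adjusted p up to 0.447 and 0.586. The rise itself was 2.13 for Ccnd1 and 1.30 for Ccnd2 in intermediate progenitors, against 0.28 and 0.33 in radial glia. The difference held the same sign within both libraries, at 1.02 and 2.75 for Ccnd1 and 1.11 and 0.86 for Ccnd2 in replicates 1 and 6, and replicate 6 carried more of the Ccnd1 value. Cycling intermediate progenitors were few, 46 and 27 cells, and 21.2% and 17.9% of cycling radial glia were scored in S against 34.8% and 25.9% of cycling intermediate progenitors, whose part in the difference was not tested.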

How the results depend on the processing

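Of 991 alternative values of single members, 897 stayed on their side of the threshold with their direction, 44 lost a call, 22 gained one and 28 changed sign with no call in either; 0 reversed a call. With the library as a replicate block 36 of 36 calls were kept, and besides the gains given with their results it changed no other call. Where the number of members called moved by over 1.5 times, radial glia (3) had 1 with DESeq2, with no filter or with the stricter cell filter, and 0 with no UMI of other lineages or after thinning to 3000 UMIs. Intermediate progenitors (5) had 3 and eminence progenitors (2) had 1 after thinning, and the latter 4 with the block, all 9 classes in a fit or doublets kept. Cycling radial glia against cycling intermediate progenitors (3) had 0 with no filter and 1 with no UMI of other lineages, their non-cycling cells (4) had 1 after thinning, cycling eminence progenitors against cycling radial glia (3) had 1 with no filter, and GABAergic neurons (5) had 2 among G1 cells, an alternative added after the data had been seen. The difference of the state effect between intermediate progenitors and radial glia (2) had 1 with RLE factors, all 9 classes, doublets kept or cycling by both genes, and 0 with the stricter filter, no UMI of other lineages or thinning, while that of eminence progenitors (0) had 1 with the block. Thinning and the gate with no UMI of other lineages leave fewer counts or cells; for the rest the cause was not tested. Leaving out a library leaves 1 sum per class and no test, so the within-library values stand in. For the 36 calls, 0 changed direction in either library. Of 196 values, 156 stayed within the spread and 40 moved beyond it. That spread was the SD of the same 2 within-library values, so most had to stay within it, and the count does not measure stability. The depth limits what can be read of Cdkn1a, Ccne1 and Ccne2, which were near a few UMIs in several classes.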

Other observations

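Genes that restrain division or open neurogenesis, a list of 8, were described for the same steps. All 8 fell from non-cycling intermediate progenitors to newborn excitatory neurons (median -1.37), where 37.6% of all genes were called, with Neurog2, the proneural factor of cortical progenitors, at 740.2 CPM before and 20.1 CPM after (adjusted p = 1.11e-08). Gadd45g, a growth-arrest gene, went from 386 CPM to 15.1 CPM (adjusted p = 1.11e-08), and Btg2, an antiproliferative gene of neurogenic divisions, from 195 CPM to 15.3 CPM (adjusted p = 2.03e-07). In GABAergic neurons 4 of 7 tested were lower than in non-cycling eminence progenitors and 1 higher, where 10.1% of all genes were lower and 9.06% higher. Gadd45g stood at 32.1 CPM against 609.6 CPM (adjusted p = 6.76e-07), Btg2 at 12.5 CPM against 236 CPM (adjusted p = 1.43e-06), and Btg1 at 169 CPM against 104 CPM (adjusted p = 0.00872). Between the cycling and the non-cycling state of intermediate progenitors 2 of 8 moved, near the 15.8% of all genes called. Insm1, a factor of basal progenitors, was higher in cycling cells (329 CPM against 163 CPM, adjusted p = 6.35e-04) and Tob1 lower (7.33 CPM against 28.2 CPM, adjusted p = 0.0333).

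The targets of p53 other than Cdkn1a, a list of 12, had few tested members. Of 8 tested at the step to newborn neurons 3 were called, where 37.6% of all genes were: 1 was higher, Bbc3 (13.3 CPM against 3.54 CPM, adjusted p = 0.00141), and 2 were lower, Perp and Trp53inp1. Trp53inp1 fell again in later neurons, from 51.6 CPM to 30.8 CPM (adjusted p = 0.00164), and was 24.3 CPM in cycling against 72.7 CPM in non-cycling intermediate progenitors (adjusted p = 0.00879).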
